A study of Mus musculus with 8 samples.

Results

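The regulators of mitochondrial biogenesis followed here are the 9 genes Ppargc1a, Ppargc1b, Esrra, Esrrb, Esrrg, Nrf1, Gabpa, Tfam and Tfb2m, out of 18782 genes measured by a probe set that the platform annotation gives exactly 1 symbol. Each was read by its brightest such probe set, chosen by the mean over all 8 arrays, so the choice did not use the genotype. The samples were distal convoluted tubules (DCT), the short nephron segment that reabsorbs sodium chloride through a thiazide-sensitive cotransporter. They came from male C57/Bl6 mice aged 8 weeks, with 4 samples from TBC1D4-deficient and 4 from TBC1D4 wild-type mice. Mice of both genotypes also carried a PV-EGFP transgene (wt/tg), in which the parvalbumin promoter drives EGFP, and green tubules were sorted by a large-object sorter (COPAS). The sort thus selected for tubule in which that promoter is active, and the labels do not say whether a sample is 1 animal or a pool. The p-values thus measure the spread between these samples. No treatment other than genotype distinguishes the groups, and the study asks which genes of the DCT respond to the loss of TBC1D4.

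TBC1D4, also called AS160, restrains Rab proteins and lies below insulin and AMPK signalling in glucose uptake. PGC-1 coactivators, encoded by Ppargc1a, Ppargc1b and the relative Pprc1, do not bind DNA themselves but dock on transcription factors, above all the estrogen-related receptors (ERR) and the nuclear respiratory factors NRF1 and GABP, and raise the transcription of mitochondrial genes. These factors in turn drive Tfam and Tfb2m, which start transcription of the mitochondrial genome. The DCT is among the nephron segments richest in mitochondria, because its sodium pump runs on ATP from oxidative phosphorylation.

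The arrays matched their labels. Tbc1d4 was at 2.48 ± 0.21 (SD, n = 4) on the log2 intensity scale in TBC1D4-deficient and 6.75 ± 0.15 (SD, n = 4) in wild-type arrays, a difference of -4.27 (limma adjusted p = 6.35e-08). The DCT cotransporter Slc12a3 lay between 11.45 and 11.56 on all 8 arrays, and Pvalb between 9.57 and 9.85. All 12 measured DCT markers were above 2.475 (mean log2), the 95th percentile of 1157 olfactory and vomeronasal receptor genes, which serve here as a guide to background because the table has no detection call. So were all 24 proximal tubule, 10 thick ascending limb, 10 intercalated cell and 13 endothelial markers, whereas 7 of 9 principal cell, 7 of 9 stromal, 3 of 6 podocyte and 5 of 10 immune markers were. The summed intensity of the proximal tubule markers ran from 2201 to 5642 in TBC1D4-deficient and from 3088 to 7337 in wild-type arrays, and that of the endothelial markers from 132.7 to 178.8 and from 178.4 to 209.6. In bulk tubules, fewer cells of a type and less RNA per cell cannot be told apart. The sample descriptions open with a number of unstated meaning, and each genotype has 2 arrays among the numbers 5 to 8 and 2 among 9 to 12, so values within each number set are given below.

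None of the 9 regulators passed the test between genotypes. Ppargc1a, Ppargc1b, Esrra and Esrrb averaged slightly above wild-type and Esrrg, Nrf1, Gabpa, Tfam and Tfb2m slightly below it, with log2 differences between -0.09 (Nrf1) and 0.08 (Esrra) and a median of -0.02. The 95% intervals of all 9 lay inside 1.5-fold, as they did for 97.5% of all genes. In the limma fit over 23039 probe sets 0 of the 9 were called at an adjusted p below 0.05 (background 0.00434%, which is Tbc1d4 alone), and 0 of the 9 had an unadjusted p below 0.05 (background 2.9%). The genotypes overlapped for every one of them (background of groups that do not overlap, 1.85%). Their adjusted p was 0.9999 and their unadjusted p between 0.189 and 0.845, and the unadjusted intervals reached from 0.14 (Nrf1) to 0.33 (Ppargc1b) to either side of the estimate.

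**Figure D1:**
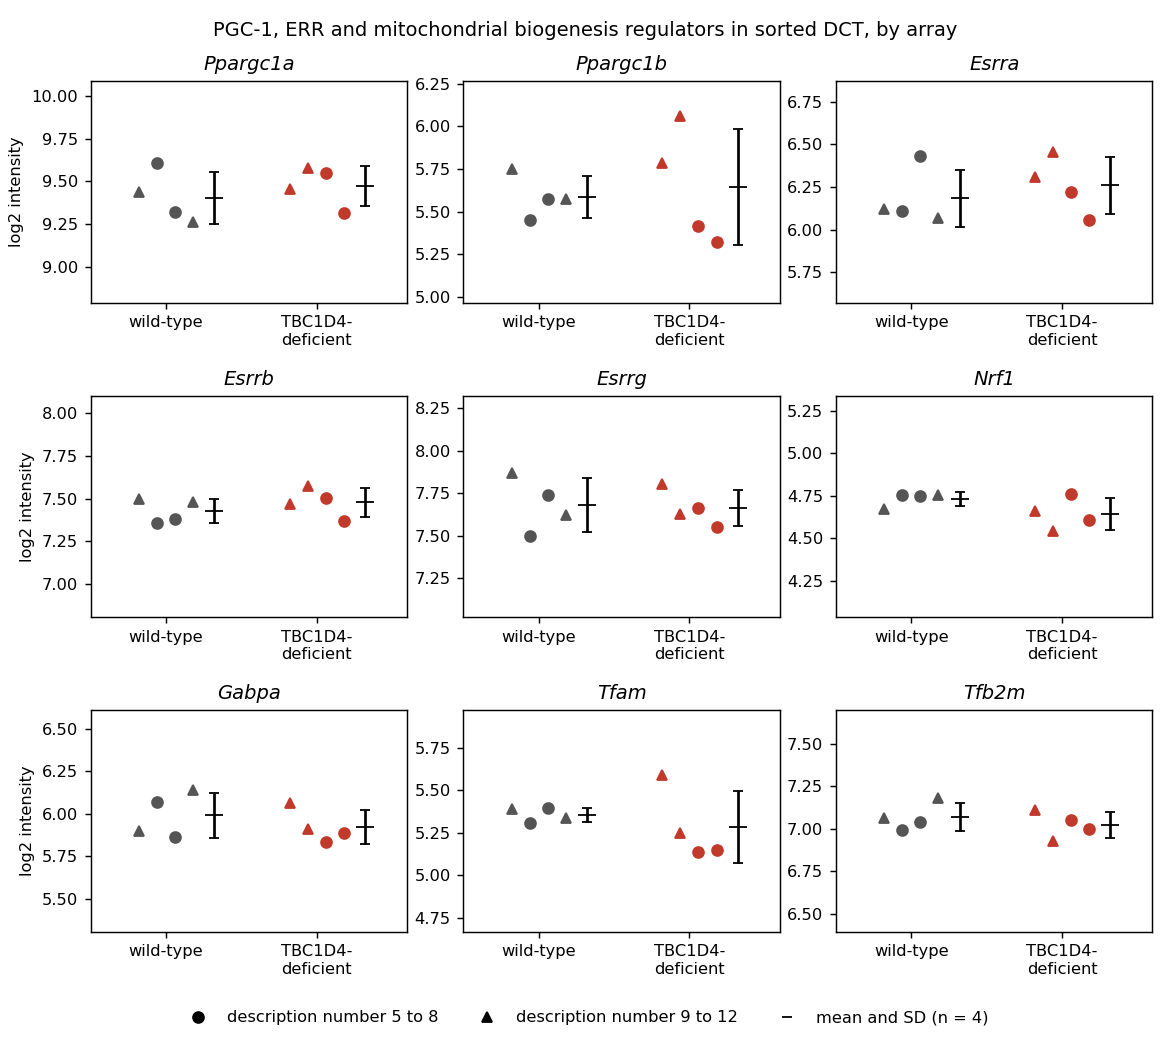
Log2 intensity of the 9 regulators on each array (vertical axis, each panel spanning the same log2 range), wild-type in grey and TBC1D4-deficient in red. Circles are arrays with description numbers 5 to 8, triangles 9 to 12, and the bar is the mean with its SD (n = 4). The genotypes overlap in every panel, and the widest spread is that of Ppargc1b in TBC1D4-deficient arrays.

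Ppargc1a encodes PGC-1alpha, the inducible coactivator that responds to energy demand, cold and fasting. It was far above the receptor background on every array. Its brighter probe set (10529979) read 9.45, 9.58, 9.55 and 9.31 in TBC1D4-deficient replicates 1 to 4 and 9.43, 9.61, 9.32 and 9.26 in wild-type replicates 1 to 4. The highest single array was therefore a wild-type one, and the lowest was wild-type too. The log2 difference was 0.07 (SE 0.09, 95% interval -0.13 to 0.27). Its other probe set (10529977) lay between 8.33 and 8.60 and gave 0.05 (-0.12 to 0.21), so both probe sets pointed the same way and neither differed beyond the spread between arrays.

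Ppargc1b encodes PGC-1beta, the constitutive relative that supports basal mitochondrial content. It was the most variable of the 9 genes, with an SD over the 8 arrays of 0.24 against a median SD of 0.12 over all genes. TBC1D4-deficient replicates 1 to 4 read 5.78, 6.06, 5.42 and 5.32, and wild-type replicates 1 to 4 read 5.75, 5.45, 5.58 and 5.57. TBC1D4-deficient arrays thus held both the 2 highest and the 2 lowest values, and the wild-type arrays lay between them. The log2 difference was 0.06 (SE 0.15, 95% interval -0.27 to 0.39), the widest interval of the 9.

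Pprc1 encodes PRC, the third coactivator of the family, which is linked to growth and stress signals rather than to energy demand. It read 4.02, 3.999, 3.74 and 3.82 in TBC1D4-deficient replicates 1 to 4 and 3.62, 3.78, 3.68 and 3.65 in wild-type replicates 1 to 4. The groups overlapped by 1 array on each side. The log2 difference of 0.21 (95% interval 0.04 to 0.39) was larger than that of any of the 9 regulators, but did not pass (limma adjusted p = 0.9999, unadjusted p = 0.0204). Its probe set was dim, below the brightest receptor gene (4.43).

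The 3 estrogen-related receptors are orphan nuclear receptors that bind the same DNA element and take PGC-1 proteins as their activating partners. Esrra, the broadly expressed member, read 6.31, 6.45, 6.22 and 6.05 in TBC1D4-deficient replicates 1 to 4 and 6.12, 6.11, 6.43 and 6.07 in wild-type replicates 1 to 4. Wild-type replicate 3 stood with the highest TBC1D4-deficient arrays while the other wild-type arrays stood with the lowest, and the log2 difference was 0.08 (SE 0.10, 95% interval -0.16 to 0.31).

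Esrrb, known for its role in pluripotent stem cells and in ion-transporting epithelia of the inner ear, was clearly above the receptor background in the sorted tubules. It read 7.47, 7.58, 7.51 and 7.37 in TBC1D4-deficient replicates 1 to 4 and 7.50, 7.36, 7.38 and 7.48 in wild-type replicates 1 to 4, a log2 difference of 0.05 (SE 0.07, 95% interval -0.10 to 0.20). The arrays lay close together (SD over the 8 arrays 0.08) and the genotypes were interleaved.

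Esrrg, which is enriched in tissues of high oxidative demand such as heart and kidney, read 7.81, 7.63, 7.66 and 7.55 in TBC1D4-deficient and 7.87, 7.50, 7.74 and 7.62 in wild-type replicates 1 to 4. Both the highest and the lowest array were wild-type. The log2 difference of -0.02 (SE 0.09, 95% interval -0.22 to 0.18) was the smallest of the 9 in size. With each array centred on its median it was 0.0026, so its sign is not settled. All 3 receptors were thus present above background in both genotypes, and levels of different probe sets are not ranked against each other because probes differ in brightness.

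NRF1 and GABP are the DNA-binding factors that act on many promoters of respiratory chain and mitochondrial ribosome genes. Nrf1 here is nuclear respiratory factor 1, not the stress factor Nfe2l1 that shares the nickname. It read 4.66, 4.54, 4.76 and 4.61 in TBC1D4-deficient replicates 1 to 4 and 4.67, 4.76, 4.75 and 4.75 in wild-type replicates 1 to 4. TBC1D4-deficient replicate 3 stood at the wild-type level and the other 3 below it. The log2 difference of -0.09 (SE 0.06, 95% interval -0.23 to 0.05) had the smallest unadjusted p of the 9 (0.189, limma).

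Gabpa encodes the ETS-domain subunit of GABP (also called NRF2). It read 6.06, 5.91, 5.83 and 5.89 in TBC1D4-deficient replicates 1 to 4 and 5.90, 6.07, 5.86 and 6.14 in wild-type replicates 1 to 4, a log2 difference of -0.07 (SE 0.08, 95% interval -0.25 to 0.11). The genotypes were interleaved. Its partner subunits, which carry the activation domain, likewise differed little, with Gabpb1 at -0.06 (-0.25 to 0.12) and Gabpb2 at 0.02 (-0.17 to 0.21).

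Tfam packages mitochondrial DNA into nucleoids and bends its promoters open for transcription. It read 5.59, 5.25, 5.14 and 5.15 in TBC1D4-deficient replicates 1 to 4 and 5.39, 5.31, 5.39 and 5.34 in wild-type replicates 1 to 4. The wild-type arrays were tightly grouped (SD 0.04), 3 TBC1D4-deficient arrays lay below all of them and TBC1D4-deficient replicate 1 above all of them (SD 0.21). The log2 difference was -0.08 (SE 0.10, 95% interval -0.29 to 0.14). Without TBC1D4-deficient replicate 1 it was -0.18 (limma adjusted p = 0.9987, unadjusted p = 0.0207), and 0 of the 9 regulators were called. That array also had the lowest proximal tubule and endothelial marker means (-1.06 and -0.39, log2, each gene centred over the 8 arrays). Its thick ascending limb (-0.16), intercalated cell (-0.26) and stromal (-0.19) means were the lowest too, and so was its array median (8.41). Its principal cell, podocyte, immune and DCT means were not. The part of these differences in its Tfam value was not tested.

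Tfb2m is the initiation factor that works with the mitochondrial RNA polymerase. It read 7.11, 6.93, 7.05 and 7.00 in TBC1D4-deficient replicates 1 to 4 and 7.06, 7.00, 7.04 and 7.18 in wild-type replicates 1 to 4, a log2 difference of -0.05 (SE 0.07, 95% interval -0.19 to 0.10). A second probe set under the same symbol differed from it by less than 0.02 on 7 of the 8 arrays and by 0.06 at most, and gave -0.04 (-0.19 to 0.12). The platform annotation gives the pair 1 RefSeq accession in common, and shared probes were not checked here, so they are not counted as independent readings. The direct partners of Tfam and Tfb2m at the mitochondrial genome were the polymerase Polrmt (log2 difference 0.07, -0.07 to 0.21), the replicative polymerase Polg (0.05, -0.09 to 0.19), the single-strand binding protein Ssbp1 (0.04, -0.12 to 0.21) and the helicase Twnk (0.01, -0.14 to 0.16). A dimmer probe set of Ssbp1 gave -0.06. Tfb1m, the rRNA methyltransferase related to Tfb2m, had no probe set of exactly 1 symbol.

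**Figure D2:**
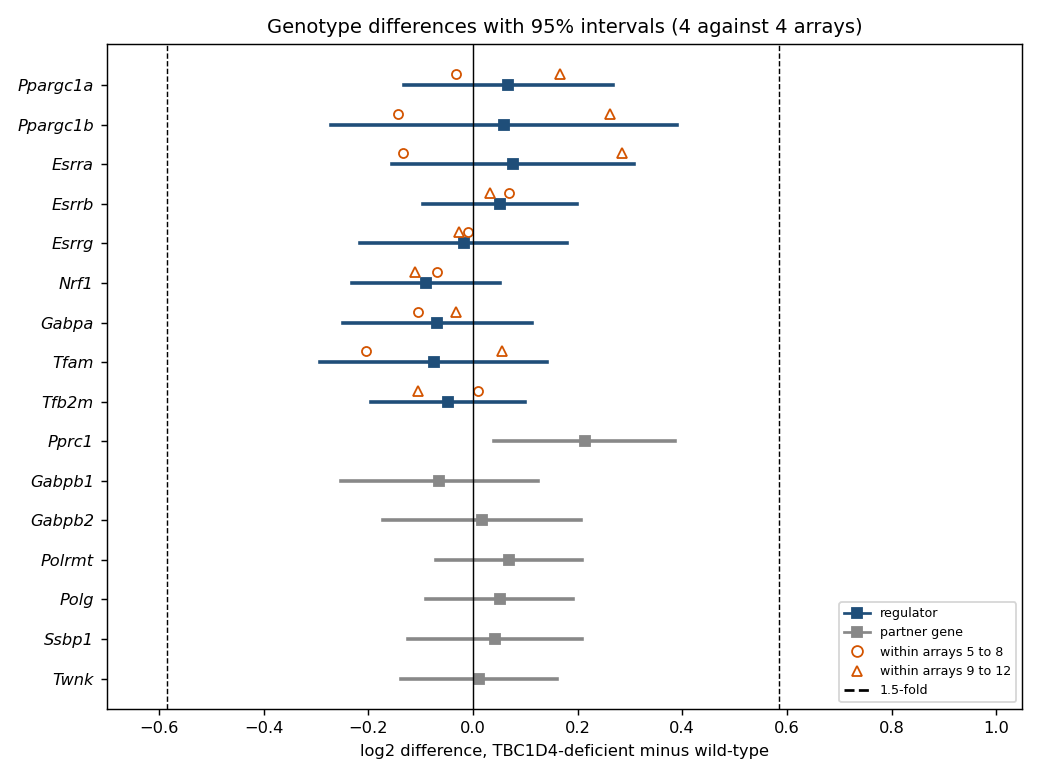
Log2 difference between genotypes (horizontal axis, TBC1D4-deficient minus wild-type) for the 9 regulators in blue and 7 partner genes in grey, with 95% intervals from the limma fit of 4 against 4 arrays. Open circles and triangles give the difference within arrays numbered 5 to 8 and 9 to 12, and dashed lines mark 1.5-fold. All intervals lie inside the dashed lines, and only that of Pprc1 leaves out 0.

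For Ppargc1a, Ppargc1b and Esrra the difference between genotypes had opposite signs in the number sets, but no test of that change passed. Within arrays 9 to 12 the log2 difference was 0.17 for Ppargc1a, 0.26 for Ppargc1b and 0.29 for Esrra. There both TBC1D4-deficient arrays were above both wild-type arrays for these 3 of the 9 regulators (background 15.1%) and below them for 1, Nrf1 (background 14.4%). Within arrays 5 to 8 it was -0.03, -0.14 and -0.13. There both TBC1D4-deficient arrays were below both wild-type arrays for 2 of the 9, Ppargc1b and Tfam (background 15.9%), and above them for 0 (background 16.2%). The change of the genotype difference from arrays 5 to 8 to arrays 9 to 12 was 0.41 for Ppargc1b (95% interval 0.02 to 0.79), 0.42 for Esrra (0.02 to 0.82) and 0.20 for Ppargc1a (-0.22 to 0.62). None of the 3 passed (limma adjusted p = 0.9994 for each, unadjusted p = 0.0412, 0.043 and 0.311), and over all 23039 probe sets 0 were called for such a change (background 0%) and 1038 had an unadjusted p below 0.05. Tfam also turned, from -0.20 to 0.05, and Tfb2m from 0.0094 to -0.10. Esrrb, Esrrg, Nrf1 and Gabpa kept their direction, at 0.07 and 0.03, -0.0094 and -0.03, -0.07 and -0.11, and -0.10 and -0.03. The interaction was added after the within-set values had been seen.

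The 9 regulators did not rise and fall as 1 group across the 8 arrays. Of the 36 pairs, 21 had a positive Pearson r, the range was -0.58 to 0.72, and 0 passed after Benjamini-Hochberg adjustment over the 36 pairs (1 had an unadjusted exact permutation p below 0.05). That pair was Ppargc1b and Esrrb (r = 0.72, exact permutation p = 0.0397, adjusted p = 0.84; Spearman rho = 0.48, exact permutation p = 0.243, adjusted p = 0.741). Without the 2 arrays farthest from the median of Ppargc1b the r was 0.31. Leaving out 2 arrays also narrows the range of values, so a lower r does not show where a relation rests. It moved r both ways: up from 0.29 to 0.96 for Ppargc1a and Esrrb, and down for the 2 pairs that follow. Ppargc1b and Esrra had r = 0.64 (exact permutation p = 0.0866, adjusted p = 0.84) and rho = 0.74 (exact permutation p = 0.0458, adjusted p = 0.741), and r was 0.16 without the 2 farthest arrays. Esrrg and Tfam had r = 0.63 (exact permutation p = 0.0901, adjusted p = 0.84) and rho = 0.57 (exact permutation p = 0.151, adjusted p = 0.741), and r was 0.28 without the 2 farthest. With values centred on the mean of each number set, Ppargc1b and Esrra had r = 0.89 and rho = 0.90. Permuting arrays within the sets, 0 of the 36 pairs passed (for this pair exact permutation p = 0.00347, adjusted p = 0.125; for rho p = 0.0104, adjusted p = 0.375), and the 576 such permutations allow no single pair an adjusted p below 0.0625. Permuting across the sets gave it adjusted p = 0.0375 for r and 0.164 for rho. Each number set alone holds 4 arrays, too few for a correlation. Ppargc1b and Nrf1 ran opposite to each other at r = -0.57 (exact permutation p = 0.145, adjusted p = 0.84; rho = -0.50, exact permutation p = 0.216, adjusted p = 0.741), and at -0.97 without TBC1D4-deficient replicate 4 (exact permutation adjusted p = 0.00714). That pair was picked after the values were seen, as the only one to pass in 8 reruns that each left out 1 array. Its adjustment covers the 36 pairs of that rerun alone, not all 8 reruns.

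**Figure D3:**
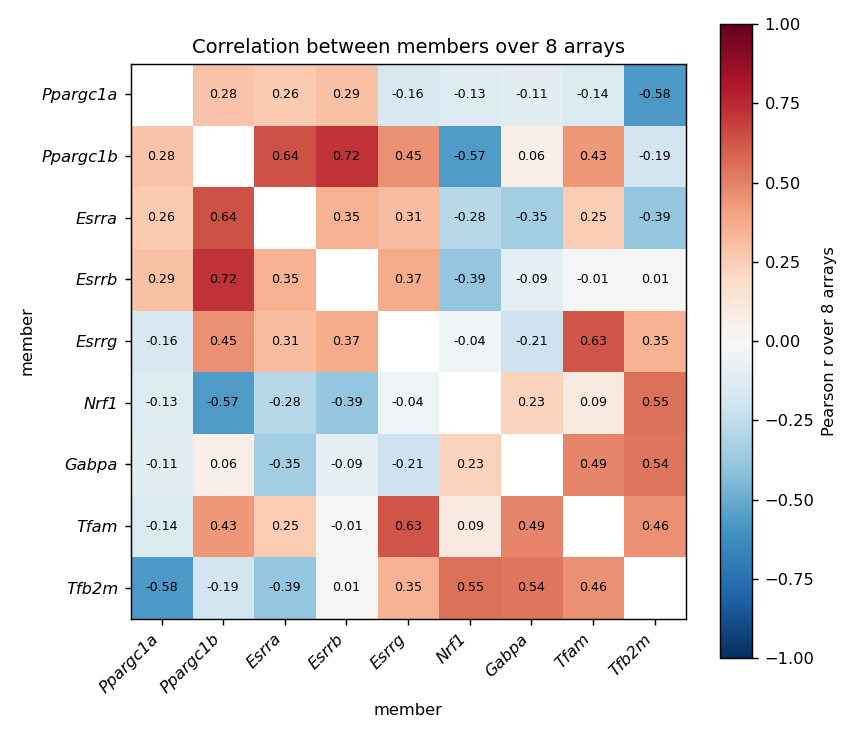
Pearson r over the 8 arrays for each pair of regulators, with the value printed in each cell and the colour scale running from -1 to 1. Values run from -0.58 (Ppargc1a and Tfb2m) to 0.72 (Ppargc1b and Esrrb), with no block of uniformly high values.

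No relation of a regulator with the proximal tubule content of the arrays passed the test. Proximal tubule cells are also rich in mitochondria, and the marker mean ranged from -1.06 (TBC1D4-deficient replicate 1) to 0.73 (wild-type replicate 4). Against it the 9 regulators had Pearson r between -0.48 (Tfam) and 0.19 (Nrf1), and in exact permutation tests 0 of 9 had an unadjusted p below 0.05 (lowest p = 0.225, adjusted p = 0.89, for Tfam). For Tfam Spearman's rho was -0.21 (exact permutation p = 0.619, adjusted p = 1), and r was -0.06 without the 2 arrays farthest from the median marker mean. With that mean as a covariate the genotype differences were 0.04 for Ppargc1a, -0.12 for Tfam and -0.05 for Esrrg, and 0 of 9 passed. A p that misses the threshold does not show that the 2 are unrelated.

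Genes whose values over the 8 arrays were most like those of 3 regulators were sought among 6178 genes above background with at least the median SD. The search over so many genes picks high r values by construction and the points share their arrays, so these are descriptions without a test. For Ppargc1a they were Kmt2d (r = 0.96), a histone methyltransferase, Syt17 (0.94), the BMP receptor Bmpr2 (0.94), the clock gene Per1 (0.93) and Alox12 (0.92). For Esrra they were Mbd6 (0.95), Unc119 (0.94), Cln8 (0.92), Scamp5 (0.92) and Exph5 (0.92). For Esrrg they were the arginine methyltransferase Prmt1 (0.97), Ttc37 (0.94), Cdk3 (0.93), the interferon-induced Ifit3 (0.93) and Tagap (0.93). The mean log2 values of Alox12 (3.26), Unc119 (4.05), Cdk3 (2.81) and Tagap (3.78) lay below the brightest receptor gene (4.43). Esrrb, Nrf1, Gabpa and Tfb2m had an SD below that median (0.12), so they were not searched and could not appear. Of the regulators that were searched, no other was among the 5 most alike of any of the 3.

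Promoter sequence was searched for the elements of the factors themselves, since Tfam, Tfb2m and Esrra are known to lie below NRF1, GABP or ERR. RefSeq start windows (GRCm38.p6, 250 bases before to 50 after each start) were at hand for 8 of the 9 regulators in 13 windows, and none for Ppargc1b. The letters searched, on both strands, were GCATGCGC for NRF1, CGGAAGT for the ETS factor GABPA, AAGGTCA for ERR and TGACGTCA for CREB, which acts on Ppargc1a in liver. They were chosen after the data were seen. NRF1 letters were in 2 of the 13 windows (Esrra and Tfb2m) against 2.71% of all 32851 windows, and ETS letters in 2 (Tfam and Tfb2m) against 6.42%. ERR letters (4.72% of all windows) and CREB letters (1.79%) were in 0 of the 13. The stretches that hold the matches are shown because they are the points where 1 regulator could be read by another, with the match in capitals and positions counted from the start site.
Tfam (chr10:71238059-71238150, minus strand, bases -106 to -15, ETS letters): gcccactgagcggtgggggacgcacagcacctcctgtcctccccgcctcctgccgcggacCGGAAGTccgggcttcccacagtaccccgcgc
Esrra (chr19:6921815-6921902, minus strand, bases -94 to -7, NRF1 letters): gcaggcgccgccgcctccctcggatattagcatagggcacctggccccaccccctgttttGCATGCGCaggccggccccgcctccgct
Tfb2m (chr1:179546242-179546269, minus strand, bases 8 to 35, NRF1 letters): tcgttcGCATGCGCcattcgtaatgttt
The ETS letters of Tfb2m lie further in, from base 36. These are matches of letters, not measured binding sites.

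Genes with these letters near their start differed little between genotypes. Of 639 measured genes with NRF1 letters, 354 (55.4%) were above 0 and the median log2 difference was 0.0084. Of 1477 with ETS letters, 857 (58%) were above 0 with a median of 0.015. The 662 genes with ERR letters had 49.4% above 0 and a median of -0.002, and the 409 with CREB letters 51.1% and 0.0021. Over all 14724 measured genes with a window the values were 49.8% and -0.00048. That comparison is not matched for level. Over the 12397 genes with a mean above the receptor background, with or without a window, the values were 51.8% and 0.0033.

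The partners, upstream regulators and targets of these regulators gave 0 calls. Among 42 measured PGC-1 partners and upstream regulators, 23 were above and 19 below 0, with a median log2 difference of 0.0072 beside -0.00074 over all 18782 genes (49.6% above 0). In that list 0 passed in limma and 1, Pprc1, had an unadjusted p below 0.05. The next smallest p-values belonged to Creb1, the cAMP-responsive factor, at 0.13 (95% interval -0.03 to 0.29), Tfe3, a lysosomal and metabolic regulator, at -0.15 (-0.34 to 0.05), and Prkaa2, a catalytic subunit of AMPK, at -0.12 (-0.29 to 0.04). The largest difference of the list, singled out after its values were seen, was -0.33 for Hnf4a, a PGC-1 partner of liver and kidney that is also among the proximal tubule markers, and 41 of the 42 intervals lay inside 1.5-fold.

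In the list for replication, transcription and upkeep of mitochondrial DNA, 21 of 29 measured genes were above 0, with a median of 0.04. In limma 0 passed and 1 had an unadjusted p below 0.05. That gene, Rnaseh1, which removes RNA primers from mitochondrial DNA, read 3.81, 3.75, 3.50 and 3.66 in TBC1D4-deficient and 3.19, 3.36, 3.68 and 3.36 in wild-type replicates 1 to 4. Wild-type replicate 3 lay among the TBC1D4-deficient arrays, and this probe set too was below the brightest receptor gene. Its log2 difference was 0.29 (0.05 to 0.52, limma adjusted p = 0.9999). Atad3a, an inner membrane ATPase that holds nucleoids, stood at 0.13 (-0.01 to 0.28), the deoxyguanosine kinase Dguok at 0.12 (-0.02 to 0.25) and the pyrimidine carrier Slc25a33 at 0.13 (-0.04 to 0.30). Within arrays 9 to 12 the list median was -0.0018, with 14 of 29 above 0, against 0.06 and 22 within arrays 5 to 8.

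In the list of enzymes that are textbook targets of ERR and PGC-1, 39 of 48 were above 0 with a median of 0.05, while 0 passed in limma and 0 had an unadjusted p below 0.05. Over the 12397 genes with a mean above the receptor background, 51.8% were above 0 with a median of 0.0033. Within arrays 5 to 8 the list had 42 above 0 and a median of 0.06, against 31 and 0.02 within arrays 9 to 12. The 4 smallest p-values belonged to Suclg1 and Sucla2, subunits of succinyl-CoA ligase in the citric acid cycle (0.12, -0.02 to 0.26, and 0.13, -0.03 to 0.29), Atp5o of ATP synthase (0.12, -0.03 to 0.28) and the mitochondrial creatine kinase Ckmt1 (0.12, -0.03 to 0.28). The intervals of all 48 lay inside 1.5-fold. The list mean overlapped between genotypes, from -0.01 to 0.07 in TBC1D4-deficient and from -0.05 to 0.02 in wild-type arrays.

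For the mitochondrial ribosome 60 of 76 genes were above 0 with a median of 0.05. In limma 0 passed and 1 had an unadjusted p below 0.05. That gene, Mrps7, of the small subunit, read 6.83, 6.77, 6.99 and 6.83 in TBC1D4-deficient and 6.48, 6.65, 6.79 and 6.69 in wild-type replicates 1 to 4, with 1 array on each side in the overlap, and its log2 difference was 0.20 (0.03 to 0.38, limma adjusted p = 0.9999). Mrps22 stood at 0.19, Mrps18b at 0.16 and Mrps21 at -0.20. The median was 0.06 within arrays 5 to 8 and 0.04 within arrays 9 to 12. The list mean was lowest in wild-type replicates 1 and 2 (-0.09 and -0.06) and highest in TBC1D4-deficient replicates 3 and 4 (0.05 each).

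Import and assembly factors gave 29 of 47 above 0 with a median of 0.03 (0.0034, without TBC1D4-deficient replicate 3, to 0.039 when 1 array was left out), 0 passing in limma and 1 with an unadjusted p below 0.05. Timm22, the channel of the carrier import pathway, read 5.21, 5.45, 5.30 and 5.37 in TBC1D4-deficient and 5.08, 4.99, 5.21 and 5.18 in wild-type replicates 1 to 4. The lowest TBC1D4-deficient array (replicate 1) and the highest wild-type array (replicate 3) were level to 2 decimals, and the log2 difference was 0.22 (0.05 to 0.39, limma adjusted p = 0.9999). Timm13 stood at 0.16, Ndufaf1, an assembly factor of complex I, at 0.13 and the outer membrane protein Mtx1 at 0.12. In fusion, fission and mitophagy 16 of 25 were above 0 with a median of 0.03 (0.00047 without wild-type replicate 1 and 0.068 without wild-type replicate 4), 0 passing and 0 with an unadjusted p below 0.05, and Mtfp1 and Micos10 had the smallest p-values at 0.17 and 0.13. None of the 15 transcripts encoded by mitochondrial DNA had a probe set of exactly 1 symbol, so the output of Tfam and Tfb2m on that genome was not analysed here.

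**Figure D4:**
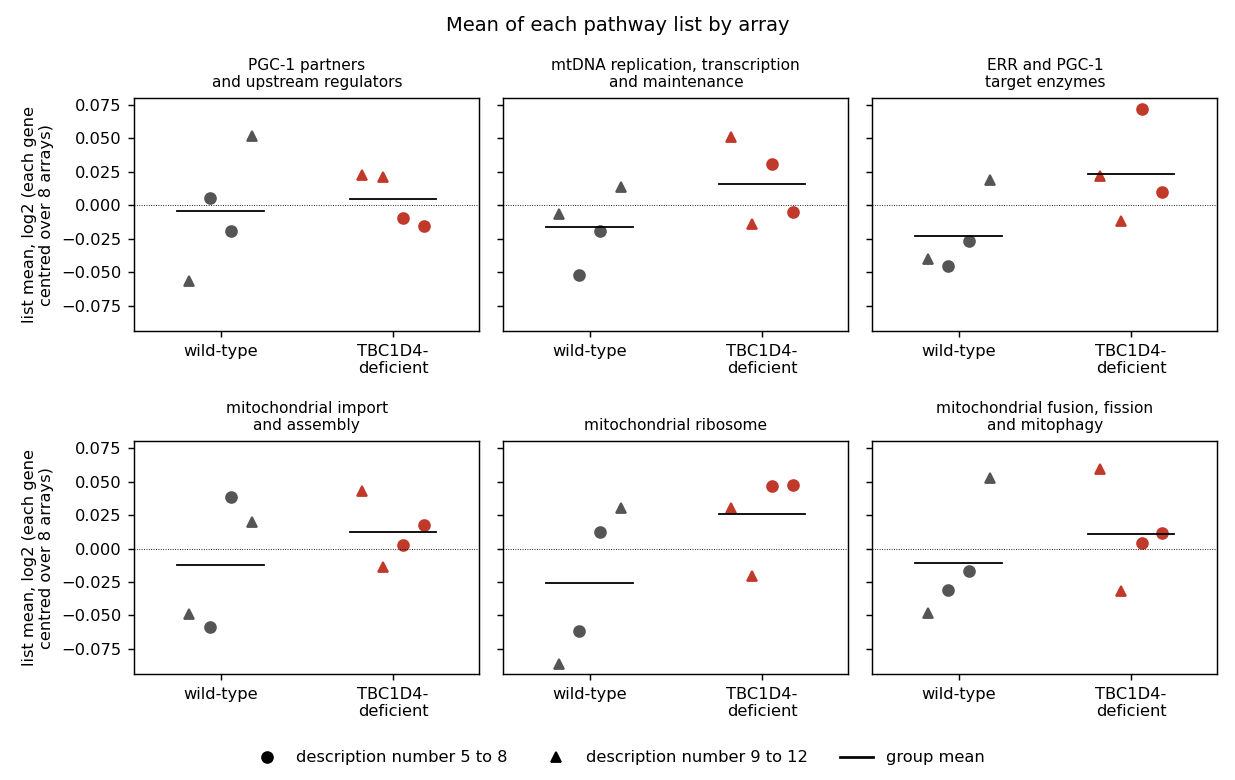
Mean of 6 pathway lists on each array (vertical axis, log2, genes centred across the 8 arrays before averaging), wild-type in grey and TBC1D4-deficient in red. Circles are arrays 5 to 8, triangles arrays 9 to 12, and lines group means. All values lie between -0.09 and 0.07, and the genotypes overlap in every panel.

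These shifts stood beside differences in markers of other cells. Proximal tubule markers were below 0 for 24 of 24 genes (median -0.28) and endothelial markers for 13 of 13 (median -0.27). In limma 0 passed, and 0 and 8 had an unadjusted p below 0.05 (background 2.9%). The endothelial mean (log2, genes centred over the 8 arrays) ran from -0.39 to -0.0054 in TBC1D4-deficient arrays. In wild-type arrays it ran from -0.0020 to 0.24, so on this scale the genotypes were just apart, whereas their summed intensities just overlapped. Below 0 were also 9 of 9 principal cell (median -0.15), 8 of 10 intercalated cell (-0.16), 8 of 9 stromal (-0.07), 7 of 10 thick ascending limb (-0.07) and 4 of 6 podocyte markers (-0.02), whereas 8 of 10 immune (0.06) and 8 of 12 DCT markers (0.02) were above 0. In limma 0 of these passed, and 2 intercalated cell and 1 stromal marker had an unadjusted p below 0.05. Without TBC1D4-deficient replicate 1, 13 of the 24 proximal tubule markers were above 0, and without wild-type replicate 3 or 4 the count was 2 or 6. In the 8 fits that each left out 1 array, 37 to 41 of the 48 target enzymes, 49 to 63 of the 76 ribosomal genes and 0 of the 13 endothelial markers were above 0. With the proximal tubule marker mean as covariate, 40 of the 48 target enzymes (median 0.06) and 63 of the 76 ribosomal genes (0.06) were above 0. So were 19 of 29 mitochondrial DNA genes (0.03), 30 of 47 import (0.03) and 17 of 25 fusion and fission genes (0.05). For partners and upstream regulators it was 20 of 42 (-0.0011). No such fit was made with the other cell types, and the part of these cells in the pathway shifts was not tested.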

How the data were processed

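RNA from 8 samples of sorted tubules (100 ng each) was hybridised to 1-colour Affymetrix arrays. The authors deposited 1 table of probe set intensities on a linear scale, made with Affymetrix Power Tools per the submitters' processing notes; its version and the summarisation, normalization and build: not given in the sources used here. Array medians lay between 8.41 and 9.03, and arrays correlated at 0.993 to 0.997. There are no read counts, so the number of arrays limits the precision.

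Intensities were taken to log2 without further normalization. limma 3.58.1 (lmFit and eBayes, R 4.3.3) was fitted with genotype as the only term to 23039 of 28371 probe sets that carry at least 1 symbol, with Benjamini-Hochberg adjustment over all of them and a threshold of 0.05; the script was tested on simulated data. Of these, 21158 have 1 symbol and 1881 several. Those with several symbols name no gene here, and the brightest of a gene's probe sets stands for it. The 9 regulators, the pathway and marker lists and the tests were chosen with earlier results of these data known. Named genes of a list are the 4 (2 in the list of fusion and fission) with the smallest unadjusted p; genes most like a regulator are the 5 with the highest Pearson r. Correlations over arrays were tested by exact, two-sided permutation. Promoter windows are those of RefSeq, GRCm38.p6. Alternatives covered filters, normalization, array weights, number set, identifier range, proximal tubule markers, replicate block and leaving out each array.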

Additional observations from a re-analysis of the deposited data

Results flagged for a closer look

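Of 18 groups of 4 arrays (9 regulators in each genotype), 2 held an array far from the other 3 by Dixon's ratio of gap to range above its 95% critical value. About 1 group in 20 does so by chance. Wild-type replicate 3 was the highest wild-type array for Esrra, at 6.43 (ratio 0.845). Wild-type replicate 1 was the lowest wild-type array for Nrf1, at 4.67 (ratio 0.899).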

How the results depend on the processing

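The 9 regulators were followed through 24 alternative settings, 216 values in all: 205 kept their direction, 11 took the other, and 0 passed the threshold (lowest limma adjusted p 0.9972, largest size 0.29). Many of the 205 could not turn. Settings that change only the probe sets tested, the error estimate or the threshold return the same difference. So do the number set and replicate block terms, which are balanced over genotype. For regulators with 1 probe set, so does the mean of a gene's probe sets. In every setting 1 probe set was called. Within arrays 5 to 8 the difference was -0.032 for Ppargc1a, -0.14 for Ppargc1b, -0.13 for Esrra and 0.0094 for Tfb2m, with 2 of 9 above 0; within arrays 9 to 12 it was 0.055 for Tfam, and the median of the mitochondrial DNA list was -0.0018. Esrrg stood at 0.0026 with arrays centred on their medians and 0.032 with the identifier range as covariate. That range is not balanced over genotype, so a fit with both separates them only in part. With that range as covariate the difference was 0.24 for Ppargc1b, 0.17 for Esrra, 0.11 for Esrrb and 0.035 for Ppargc1a. It was -0.13 for Nrf1, -0.097 for Gabpa, -0.070 for Tfam and -0.054 for Tfb2m. Leaving out 1 array gave -0.079 to 0.17 for Ppargc1b and -0.078 to 0.044 for Esrrg. The list medians then ran from 0.019 to 0.053 for mitochondrial DNA, 0.028 to 0.062 for target enzymes and 0.023 to 0.077 for the ribosome. In the main fit 39 of 48 target enzymes and 60 of 76 ribosomal genes were above 0. With arrays centred on their medians the counts were 44 and 67, with the median of all genes at 0.02. Quantile normalization again gave 44 and 59, and the identifier range as covariate 35 and 54. The cause was not tested.

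Proximal tubule markers above 0 numbered 9 with the identifier range and 12 with their own mean as covariate, 6 within arrays 5 to 8, and 0 to 13 without 1 array. Their median was -0.037 with the identifier range, which is not balanced over genotype, as covariate, against -0.28 in the main fit. Pairs of regulators past the threshold numbered 1 with values centred on number sets (Ppargc1b and Esrra, r = 0.89), 0 where arrays were then permuted within the sets, an alternative chosen after seeing the data, and 0 to 1 without 1 array. Against the proximal tubule mean, centring on number sets gave r = 0.051 for Ppargc1b, 0.19 for Esrrb and 0.068 for Tfb2m, and centring on genotype 0.042 for Esrrb. Leaving out 1 array gave -0.49 to 0.028 for Ppargc1b, -0.18 to 0.38 for Esrra, -0.23 to 0.15 for Esrrb, -0.66 to 0.18 for Gabpa, -0.67 to 0.079 for Tfam and -0.60 to 0.30 for Tfb2m.

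Whether same-numbered arrays of the genotypes share more than a number is not stated in the sources used here. Their deviations correlated at 0.39, -0.20, 0.03 and 0.02 for replicates 1 to 4. Differently numbered arrays were not compared in this way, so these values do not settle it. With the replicate block 1 probe set and 0 regulators were called, and the difference was 0.07 for Ppargc1a and -0.09 for Nrf1. Pprc1, Rnaseh1, Slc25a33 and Twnk had mean values below the brightest receptor gene. So did Alox12, Unc119, Cdk3 and Tagap among the genes most like a regulator.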
